A study of Mus musculus with 7 samples.

Results

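The regions described here are 826 stretches of the mouse genome that were more accessible in the nuclei of somatostatin (SST) interneurons than in those of the other classes profiled. They were chosen from 323369 reference regions, of which they are 0.255%. For the choice, the reads of each ATAC-Seq sample were divided by the sum of all its reads in the reference regions and given as CPM. A region was kept where the lower of the SST samples was at least 5 CPM and at least 2 times the highest of the parvalbumin (PV) and vasoactive intestinal polypeptide (VIP) samples. The floor alone was met in both SST samples by 23393 regions, and 3.53% of these met the ratio as well. By the same rule 1539 regions were PV-selective and 4738 were VIP-selective. Since the SST, PV and VIP values chose the regions, the SST excess in them is a description and carries no test.

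ATAC-Seq, which cuts open chromatin with a transposase, was run on 2 samples of each of the 3 interneuron classes, and the values are the reads that fell in each reference region. Nuclei came from the whole cortex of mice aged 6 to 12 weeks that carried Sst-IRES-Cre, Pv-Cre or Vip-IRES-Cre together with the SUN1-2xsfGFP-6xMYC allele, which tags the nuclear envelope where Cre is active, and were pulled down with an antibody to GFP. All animals of this arm were uninjected, and the labels call them male while the protocol names both sexes. A Cre line tags every cell with a history of Cre activity, so each sample is a mixture of subtypes. Since these are pooled nuclei, a higher value can mean more open nuclei or more open copies per nucleus, which cannot be told apart. A further sample holds single-nucleus RNA from the visual cortex of C57BL/6J mice aged 6 to 10 weeks that had been injected with a library of AAV9 viruses, each carrying one gene regulatory element (GRE) before a GFP reporter. The 6 ATAC-Seq samples held 1801883 to 2256073 reads in the reference regions. A region at the Sst start reached 17.3 and 14.2 CPM in SST and at most 1.99 elsewhere, and one at the Vip start 12.9 and 16.5 CPM in VIP and at most 2.62 elsewhere. The Pvalb start separated the classes less, with 19.8 and 16.1 CPM in PV against 9.93 to 14.3 in the others. The excitatory gene Slc17a7 stayed at or below 1.66 CPM in every sample. The start of the inhibitory gene Gad1 was low too, at 1.02 to 5.96 CPM, while that of Gad2 had 21.8 to 37.2. A low value at 1 start thus does not show that a cell type was absent. The starts of the myelin gene Mbp had 14.7 and 22.6 CPM in the SST samples, 8.64 and 7.77 in PV and 11.9 and 16.1 in VIP. This marker of oligodendrocytes was thus higher in the SST than in the PV samples. Markers of other cells did not show this order. The microglial gene C1qa had 2.10 and 3.55 CPM in SST, 3.05 and 4.99 in PV and 0.993 and 0.894 in VIP. The endothelial gene Cldn5 had 3.67 and 2.22 CPM in SST, 5.08 and 5.55 in PV and 1.49 and 1.34 in VIP. The part of such cells in the choice of regions was not tested.

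SST interneurons are inhibitory cells of the cortex, many of which send axons to the distal dendrites of pyramidal neurons. Like PV interneurons they are born in the medial ganglionic eminence (MGE), whereas VIP interneurons come from the caudal ganglionic eminence (CGE). Open chromatin away from gene starts often contains enhancers, short stretches that are bound by transcription factors and raise transcription of a gene that can lie far away.

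The sequences below sit at Sst or were tested in a virus, except the Ldlrad3 intron, which is among the regions with the highest SST levels. Letters in capitals mark matches to the AP-1 site TGANTCA, to the E-box sequences CAGCTG and CAGATG, to the homeobox core TAATTA, to the cyclic AMP response element (CRE) TGACGTCA or to the octamer ATGCAAAT, on either strand. The first is a stretch around the CRE of the Sst promoter, chr16:23890874-23890903 on the minus strand, credited to RefSeq. It lies before the start that RefSeq gives for Sst but within the gene by GENCODE, whose starts are used for all distances here. The others are the central 300 bases of their regions on the plus strand, all on GRCm38. They lie at chr16:23892744-23893043 upstream of Sst, chr11:111818145-111818444 (GRE262), chr4:50006928-50007227 near Grin3a (GRE65), chr12:65491093-65491392 (GRE163), chr13:57459721-57460020 in an intron of Spock1 (GRE91), chr7:115319332-115319631 near Sox6 (GRE170) and chr2:102057385-102057684 in an intron of Ldlrad3.
Sst promoter: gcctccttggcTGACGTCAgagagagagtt
Sst upstream: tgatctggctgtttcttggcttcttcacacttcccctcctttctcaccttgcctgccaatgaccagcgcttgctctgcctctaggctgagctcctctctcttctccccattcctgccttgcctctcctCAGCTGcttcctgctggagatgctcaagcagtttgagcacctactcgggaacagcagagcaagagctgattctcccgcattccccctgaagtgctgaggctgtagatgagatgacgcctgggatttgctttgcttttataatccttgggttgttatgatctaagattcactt
GRE262: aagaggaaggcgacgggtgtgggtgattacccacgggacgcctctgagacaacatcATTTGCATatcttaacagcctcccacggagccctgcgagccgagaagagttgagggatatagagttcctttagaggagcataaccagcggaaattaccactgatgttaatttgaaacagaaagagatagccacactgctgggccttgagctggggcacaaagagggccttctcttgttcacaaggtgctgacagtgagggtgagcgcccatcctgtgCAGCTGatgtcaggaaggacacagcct
GRE65: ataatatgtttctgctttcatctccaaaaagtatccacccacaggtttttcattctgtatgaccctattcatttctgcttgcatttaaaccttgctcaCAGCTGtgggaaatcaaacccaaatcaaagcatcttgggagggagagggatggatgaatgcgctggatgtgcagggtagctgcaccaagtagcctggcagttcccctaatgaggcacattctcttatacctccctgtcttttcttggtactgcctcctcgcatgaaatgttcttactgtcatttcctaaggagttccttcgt
GRE163: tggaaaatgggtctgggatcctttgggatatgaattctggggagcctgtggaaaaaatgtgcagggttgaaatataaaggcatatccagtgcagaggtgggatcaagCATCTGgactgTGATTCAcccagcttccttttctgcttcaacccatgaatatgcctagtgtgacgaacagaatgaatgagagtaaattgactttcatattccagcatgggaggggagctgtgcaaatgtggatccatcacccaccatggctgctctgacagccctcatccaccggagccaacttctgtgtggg
GRE91: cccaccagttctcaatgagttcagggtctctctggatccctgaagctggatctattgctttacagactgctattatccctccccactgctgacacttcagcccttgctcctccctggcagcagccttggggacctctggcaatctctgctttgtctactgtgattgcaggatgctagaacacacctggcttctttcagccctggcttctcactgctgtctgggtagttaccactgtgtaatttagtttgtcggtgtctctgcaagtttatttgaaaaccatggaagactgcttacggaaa
GRE170: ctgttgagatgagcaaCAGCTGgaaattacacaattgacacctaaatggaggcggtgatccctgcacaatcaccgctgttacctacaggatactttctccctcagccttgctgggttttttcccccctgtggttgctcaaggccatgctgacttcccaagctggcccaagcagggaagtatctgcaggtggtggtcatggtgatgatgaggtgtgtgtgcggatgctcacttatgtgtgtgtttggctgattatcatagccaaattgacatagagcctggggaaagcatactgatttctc
Ldlrad3 intron: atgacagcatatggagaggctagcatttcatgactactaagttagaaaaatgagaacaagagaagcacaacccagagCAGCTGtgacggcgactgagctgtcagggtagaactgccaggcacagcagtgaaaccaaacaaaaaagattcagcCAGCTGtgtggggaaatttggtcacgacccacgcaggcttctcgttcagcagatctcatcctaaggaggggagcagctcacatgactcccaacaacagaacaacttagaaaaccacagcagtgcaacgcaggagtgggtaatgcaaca

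Across the 826 regions the median level was 8.92 and 9.31 CPM in the SST samples. It was 2.03 and 2.22 CPM in the PV samples and 0.993 and 0.894 CPM in the VIP samples. Most regions were therefore modest in size, with an upper quartile of 12.6 CPM in the first SST sample and a highest value of 94.0. The regions took 0.936% and 0.983% of the reads of the SST samples, 0.220% and 0.212% of those of PV, and 0.139% and 0.140% of those of VIP. A peak call of the authors covered 91.0% of the regions in both SST samples, 5.57% in 1 of them and 3.39% in neither. A peak was marked in at least 1 PV or VIP sample for 52.9%, against 94.2% of the distal regions that met the floor but not the ratio. Of all reference regions, 31.3% had a PV or VIP peak and 10.5% a peak in both SST samples. These marks come from the same samples that the rule used, so they only describe the regions. Selective does not mean closed outside SST cells here, since many were called as peaks there too.

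**Figure D1:**
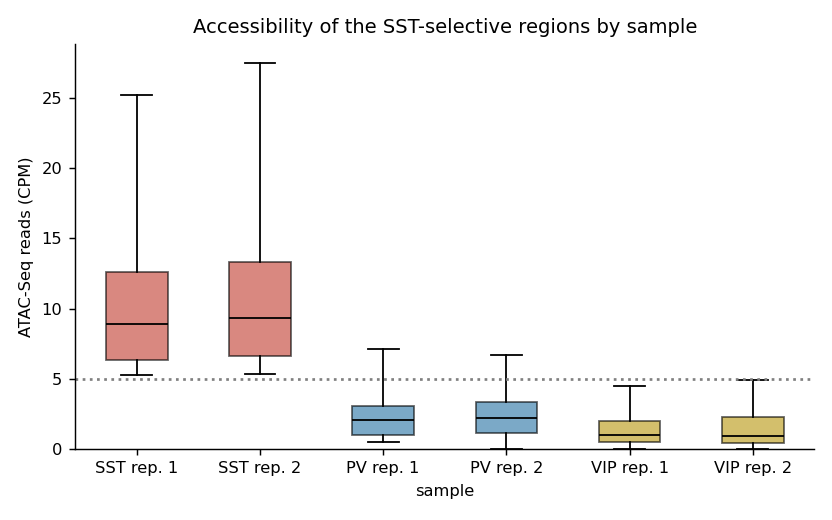
Reads per sample in the 826 SST-selective regions (CPM, vertical axis), with the 6 samples along the horizontal axis. Boxes span the quartiles with the median as a line, whiskers reach the 5th and 95th percentiles, and the dotted line is the floor of 5 CPM. The medians are 8.92 and 9.31 in SST, 2.03 and 2.22 in PV and 0.993 and 0.894 in VIP.

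The threshold had regions close by on either side. Just inside the ratio lay regions near Gfpt2, Pgpep1l and Fndc9, at 2.004, 2.007 and 2.009 times the highest other sample. Just outside it were regions near Plpp4, Pdyn and C2cd5, at 1.9998, 1.997 and 1.997 times. Pdyn encodes the precursor of the dynorphin peptides and is used as a marker of some SST cells. At the floor, the lowest members had 5.25 CPM in the lower SST sample, among them regions near Fhl2, Agxt and Gpr39. The highest regions left out had 4.88 CPM, among them those near Gm4791, Has3 and Cdh5. A further 706 regions met the floor with a ratio of 1.5 to 2, and 5125 met the ratio below the floor.

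Taken on single samples, the rule was met by 3401 regions in replicate 1 of each class and by 3734 in replicate 2, and 1024 regions met it in both. These are values that the rule used, and nothing is read from them about the 826 regions.

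The strongest member lay at the shared start of 5330417C22Rik and 1700013F07Rik (chr3:108536305-108537038). It had 94 and 101 CPM in the SST samples, 36.6 and 35 in the PV samples and 36.2 and 40.7 in the VIP samples, so it was open in all classes and highest in SST. The promoter of Myo10, an unconventional myosin of filopodia, was of the same kind, with 61.9 and 54.1 CPM in the SST samples, 21.9 and 13.9 in the PV samples and 19.9 and 24.6 in the VIP samples. Other regions of high level were more restricted. An intron of Mcc whose nearest protein-coding start is that of Dcp2 had 75.1 and 80.7 CPM in the SST samples, 20.3 and 18.9 in the PV samples and 2.98 and 3.58 in the VIP samples. The region tested as GRE262, 752131 bp from the start of the inward rectifier potassium channel gene Kcnj2, had 60.4 and 54.1 CPM in the SST samples, 11.2 and 7.21 in the PV samples and 0.993 and 4.02 in the VIP samples. In both regions the VIP samples lay below the PV samples. The Ldlrad3 intron had 49.3 and 53.6 CPM in the SST samples, 15.8 and 11.7 in the PV samples and 3.48 and 14.3 in the VIP samples, and there the VIP samples differed from each other. The rest of the 10 highest, near Ppp2r2a, Gpatch2, Sdhaf3, Insc and the cadherin gene Cdh8, reached 44.6 to 62.1 CPM in SST and were intergenic.

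The regions with the highest ratios were small. The Cald1 intron (chr6:34622782-34623409), in the gene of the actin-binding protein caldesmon, had 12.1 and 12.4 CPM in the SST samples, 0.508 and 0.555 in the PV samples and 0 and 0.447 in the VIP samples. Its lower SST value was 21.8 times the highest other one. The regions in Ap2b1, near Etnk1, in Kirrel3 and near Cxcl12 followed, with ratios of 14.2, 14.2, 13.4 and 12.8. In these the PV and VIP values came from 0 to a few reads per sample, and the ratios have that counting error.

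Few of the regions lay at promoters. Of the 826 regions, 29 (3.51%, Wilson 95% interval 2.46 to 5.00) lay within 1000 bp of the start of a protein-coding gene, against 55.8% of the 22567 other regions that met the SST floor and 21990 of all 323369 reference regions. The PV-selective and VIP-selective regions had like shares, 4.48% and 4.37%, so a low share of promoters was common to all selective sets. Of the SST-selective regions 84 (10.2%) overlapped an exon outside promoters, 313 (37.9%) lay in introns and 400 (48.4%) were intergenic. Of the 797 regions more than 1000 bp from a start, called distal here, these are 10.5%, 39.3% and 50.2%. Among the 9978 other SST-accessible distal regions the shares were 14.2%, 38.5% and 47.3%. All reference regions, promoters included, had 10.3%, 35.4% and 47.5%, close to the shares of the 826. The median distance from the centre of a region to the nearest start was 47618 bp for SST-selective regions and 51571 bp for the distal ones among them. It was 43838 bp for PV-selective ones, 46998 bp for VIP-selective ones, 32246 bp for the other distal ones and 49194 bp for all reference regions. A single region lay on chromosome X (0.121%), against 1.38% of the other distal regions, 0.845% of the PV-selective, 0.865% of the VIP-selective and 3.07% of all reference regions.

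Conservation of the SST-selective regions was close to that of comparable ones. Their median phyloP score, in which positive values stand for bases that changed less among placental mammals than expected under neutral drift, was 0.121, and 0.120 in the distal ones among them, against 0.120 in the other distal regions and 0.064 in all reference regions. A mean score above 0.5, the level the study used to call an element conserved, was found in 120 regions (14.5%). The share was 17.1% for the other distal regions, 13.2% for PV-selective and 17.5% for VIP-selective regions, and 11.2% for all reference regions. By position, the median score was 0.341 for the regions with an exon, 0.0859 for those in introns and 0.122 for the intergenic ones. Of these, 32.1%, 9.90% and 14.2% had a mean score above 0.5. In the other distal regions the medians were 0.356, 0.0950 and 0.0957, and 36.5%, 13.5% and 14.3% had a mean score above 0.5. The median GC content of the SST-selective regions was 48.4%, and 48.2% in the distal ones among them. It was 50.6% in the other distal regions, 47.9% in the PV-selective and 49.8% in the VIP-selective ones. The distal SST-selective regions were also narrower than the other distal ones (median 749 against 807 bp). The median width was 769 bp in the PV-selective, 755 bp in the VIP-selective and 673 bp in all reference regions. The median ratio of observed to expected CpG was 0.263 in the distal SST-selective regions, lower than in the other distal ones (0.329). It was higher than in the PV-selective (0.237), the VIP-selective (0.226) and all reference regions (0.219). The motif shares below were not adjusted for these differences.

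Sequence motifs differed more. The AP-1 site TGANTCA, bound by Fos and Jun proteins, was found in 36.9% of the 797 SST-selective regions away from promoters (Wilson interval 33.6 to 40.3). It was found in 29.4% of the other distal regions, 28.6% of the PV-selective, 28.2% of the VIP-selective and 25.3% of all reference regions. Narrowing the search to 300 bp around the centre gave 24.1% against 17.1%, 14.8%, 15.5% and 14.6%. The E-box CAGATG, a site for basic helix-loop-helix proteins, was in 66.4% of them over the whole region and 44.7% in the centre. That compares with 55.0% and 29.5% in the other distal regions, 56.5% and 29.6% in the PV-selective and 63.1% and 41.0% in the VIP-selective ones. The E-box was therefore more frequent than in the other distal and PV-selective regions and close to the VIP-selective ones. The E-box CAGCTG was in 63.1%, against 58.6% in the other distal, 56.1% in the PV-selective and 68.5% in the VIP-selective regions. The octamer ATGCAAAT, a site for POU factors, was in 9.16%, against 5.62%, 3.70% and 6.44%. The share of reference regions with these sites was 52.2% for CAGATG, 41.1% for CAGCTG and 4.51% for the octamer.

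The core of nuclear receptor sites, AGGTCA, was less frequent than in any set compared. It was in 25.8% of the 797 regions away from promoters and in 5.52% of their centres, and in 25.2% and 5.33% of all 826. In the PV-selective regions the shares were 50.4% and 27.7%, in the VIP-selective 36.9% and 13.6%, in the other distal 34.9% and 10.9%, and in all reference regions 34.1% and 15.2%. The core of nuclear factor I sites, TTGGCA, was in 36.1%, against 42.9% of the PV-selective, 53.8% of the VIP-selective and 38.2% of the other distal regions. CTCF motif matches were in 3.51%, against 15.4% of the other distal regions, 6.37% of the PV-selective and 4.98% of the VIP-selective ones. The MAF site TGCTGA was in 57.6%, against 55.9% of the other distal, 62.6% of the PV-selective and 54.6% of the VIP-selective regions. The SOX site ATTGTT was in 25.8%, against 24.8%, 23.6% and 31.1%, and in the centres in 6.15%, against 6.58%, 4.74% and 13.5%. The homeobox core TAATTA was in 16.4%, against 15.5%, 19.6% and 17.8%. These sites thus lay near the share of the other distal regions, and SOX sites were more frequent in the VIP-selective ones. The ETS site CCGGAA was in 11.4%, against 18.6%, 11.2% and 11.8%. The EGR site GCGTGGG was in 8.03%, against 11.0%, 3.70% and 7.58%, and MEF2 motif matches were in 9.16%, against 10.7%, 15.9% and 9.41%. The CRE, printed above for the Sst promoter, was rare, in 7 of the 797 regions (0.878%), against 2.14% of the other distal, 0.910% of the PV-selective, 1.14% of the VIP-selective and 0.811% of all reference regions. All shares of SST-selective regions given here for motifs are of those 797 unless said otherwise, whereas the PV- and VIP-selective sets keep their 69 and 207 promoter regions. Over all 826 the shares were 36.1% for AP-1, 65.3% for CAGATG, 62.8% for CAGCTG and 9.20% for the octamer. All counts take both strands, AP-1 matches can overlap CRE-like sites, and a match is a description of the letters.

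**Figure D2:**
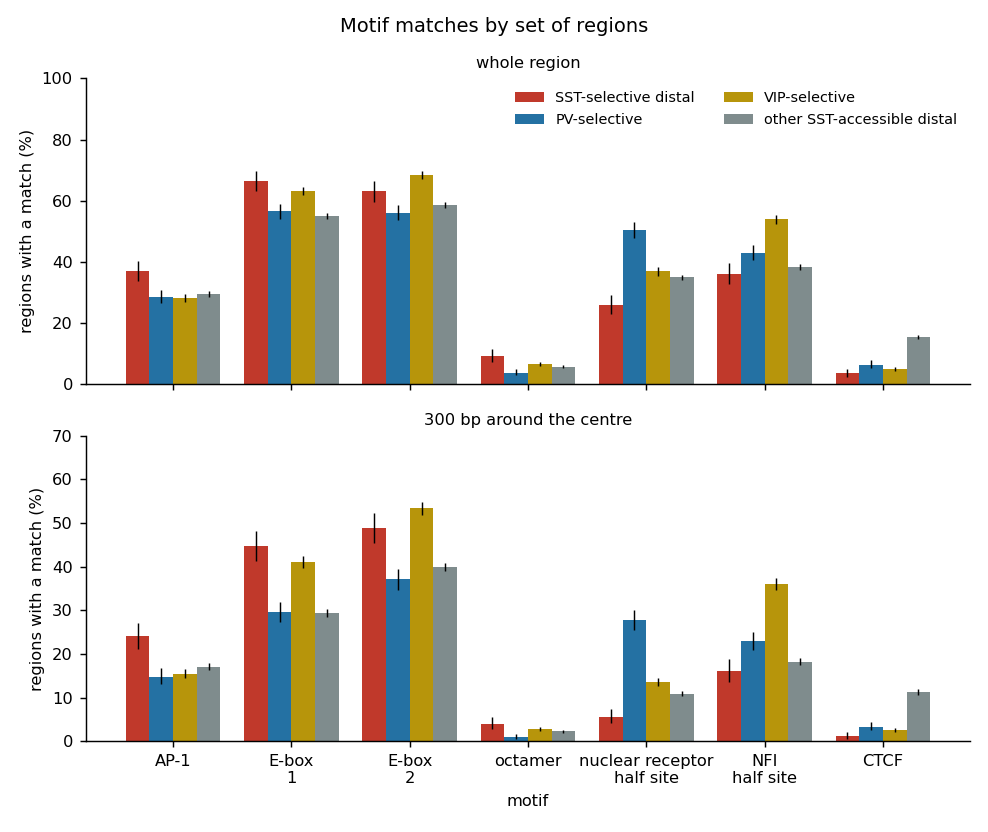
Share of regions with a motif match (vertical axis, %), over the whole region (top) and in 300 bp around its centre (bottom), for 797 distal SST-selective, 1539 PV-selective, 4738 VIP-selective and 9975 other distal SST-accessible regions. E-box 1 is CAGATG and E-box 2 is CAGCTG. Bars are shares with Wilson 95% intervals. The nuclear receptor site stands at 5.52% in the SST-selective centres and 27.7% in the PV-selective ones.

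The rule capped the highest PV or VIP value, alike for both classes, so the comparison of PV with VIP in these regions is also a description. Most of the regions passed the filter on low counts through their SST reads, and their PV and VIP counts are low. Nothing is read from the number of calls or from the folds. edgeR's quasi-likelihood test on the counts of all 6 samples, over 40338 regions with enough reads, called 112 of the 826 regions higher in PV (13.6%) and 13 higher in VIP (1.57%) at a Benjamini-Hochberg adjusted p under 0.05. Over all regions tested, 24.6% were called higher in PV and 24.6% higher in VIP. Among the 9978 other distal regions 32.0% were higher in PV and 13.8% higher in VIP. The fold favoured PV in 625 SST-selective regions (75.7%), with a median log2 difference of 0.71, compared with 0.44 for the other distal regions and 0.04 for all tested. With no filter on low counts the fold favoured PV in 65.9%, and the medians were 0.43, 0.14 and 0.16. The share called higher in PV then lay above that of all tested, the reverse of the order with the filter. The mean level in regions without a peak in any sample was 0.869 and 0.981 CPM in the PV samples and 0.736 and 0.551 in the VIP samples, so the background of the PV libraries was higher too. Its part in these folds was not tested. DESeq2 called 47 regions higher in PV (5.69%, against 12.9% of all tested) and 4 higher in VIP (0.484% against 15.9%). Leaving out 1 PV or VIP sample gave 48 to 69 (5.81% to 8.35%, against 11.1% to 13.9% of all tested) and 2 to 9 (0.242% to 1.09%, against 13.1% to 15.9%). With that mean subtracted, the SST-selective regions averaged 1.80 and 1.59 CPM in PV and 0.9496 and 1.14 in VIP, and the other distal regions 13.3 and 12.4 in PV and 11.4 and 12.6 in VIP. In the contrast that the rule used, which sets SST over the average of the other classes, 823 of the 826 regions passed, against 8.15% of all tested regions, and nothing is read from this.

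**Figure D3:**
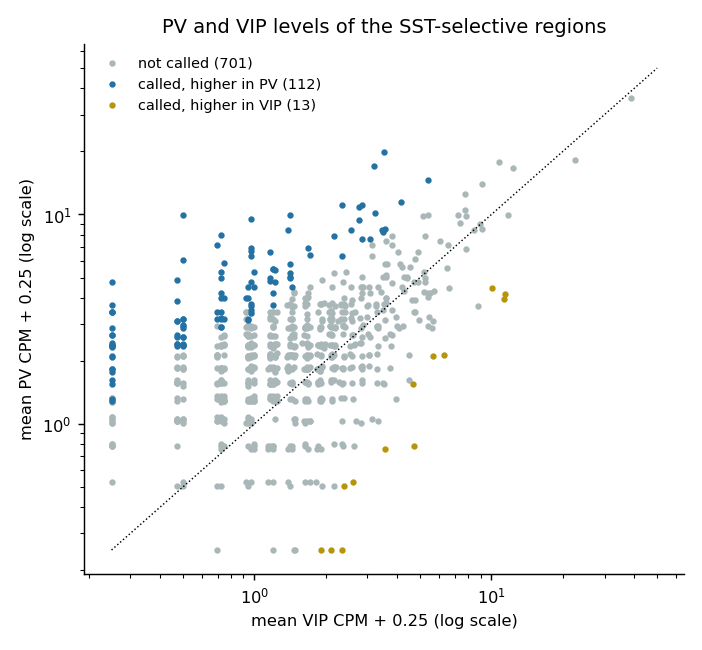
Mean CPM in the PV samples (vertical axis) against mean CPM in the VIP samples (horizontal axis) of the 826 SST-selective regions, both with 0.25 added on log axes. The 112 regions called higher in PV are blue, the 13 called higher in VIP are yellow, the others are grey, and the dotted line marks equal values.

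The regions with the most PV over VIP had no VIP reads. An intron of Kcnma1, which encodes the large-conductance calcium-activated potassium channel, had 14.2 and 9.75 CPM in the SST samples, 4.58 and 4.44 in the PV samples and 0 and 0 in the VIP samples. The size of its fold is not given because the VIP values are 0. Regions in Trub1 and Vtcn1 and near Atp6v1c1 had 3.05 to 3.56 CPM in PV and again none in VIP. In the opposite direction, regions near Tcl1b2, Lamc3 and Ctnnbl1 had 1.34 to 2.68 CPM in VIP and none in PV. The Mad1l1 intron had 9.97 and 15.1 CPM in the SST samples, 0.508 and 0.555 in the PV samples and 3.97 and 4.92 in the VIP samples, with reads in every sample. In an intron of Cacng5, an auxiliary subunit of AMPA receptors, the values were 5.25 and 5.32 CPM in the SST samples, 0 and 0.555 in the PV samples and 2.48 and 2.24 in the VIP samples.

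Regions near genes of the class were few but present. Of the 16 genes on a list of SST interneuron genes, 6 had a member, with 9 regions in all (1.09% of the 826). The same list took 0.195% of the PV-selective, 0.401% of the VIP-selective and 0.210% of the other distal regions. Of its genes 3 had a PV-selective, 7 a VIP-selective and 8 an other distal region. On the list of MGE genes these counts were 4, 4 and 10. The sets differ in size, so nothing is read from the numbers of genes. Of 11 MGE genes 4 had a member (0.484%, against 0.281% of the other distal, 0.455% of the PV-selective and 0.253% of the VIP-selective regions), of 10 PV genes 0, of 13 VIP genes and 9 CGE genes 1 each, the shared gene Prox1, and of the lists of 10 genes of GABA neurons and 9 of excitatory neurons 0. These lists took few of the other distal regions too, 0.0601% for PV, 0.0601% for VIP, 0.140% for CGE, 0.130% for GABA and 0.140% for excitatory neurons, against 0.121% of the 826 for a single region, so nothing is read from a 0 or 1. Of 14 genes of glia and vessels 2 had members, Mbp and Pdgfra, with 3 regions (0.363%, against 0.160% of the other distal, 0.0650% of the PV-selective and 0.169% of the VIP-selective regions). No gene list was tested for enrichment, and shares of the SST-selective regions at genes include their 29 promoter regions. Shares over all reference regions are not given for the gene lists or the gene families.

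The Sst promoter region (chr16:23890318-23891106), whose centre lies 246 bp into the gene, had 17.3 and 14.2 CPM in the SST samples, 1.02 and 1.11 in the PV samples and 1.99 and 1.79 in the VIP samples. A further region 1936 bp upstream of the Sst start (chr16:23892540-23893247) had 5.25 and 10.6 CPM in the SST samples, 0 and 1.66 in the PV samples and 0.496 and 0.894 in the VIP samples. The SST samples differ there, and the lower one has the lowest value of any member, just above the floor, but both exceed all others. For Cbln4, which encodes a secreted synaptic organizer, 2 intergenic regions at 96751 and 367123 bp were found. The nearer (chr2:171946282-171947148) had 42 and 57.6 CPM in the SST samples, 11.7 and 7.77 in the PV samples and 0.496 and 0 in the VIP samples. The farther one had 24.1 and 19.9 CPM in the SST samples, 6.10 and 6.10 in the PV samples and 0.993 and 0.447 in the VIP samples. In both regions every PV value lay above every VIP value.

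The region 161529 bp upstream of Grin3a, which encodes a subunit of NMDA receptors, had 11.5 and 16 CPM in the SST samples, 0.508 and 0.555 in the PV samples and 0 and 1.79 in the VIP samples and is GRE65. Of the regions near Crhbp, the gene of the corticotropin-releasing hormone binding protein, that at the promoter had 9.97 and 8.86 CPM in the SST samples, 3.56 and 3.33 in the PV samples and 0 and 2.24 in the VIP samples. The one 5925 bp upstream had 9.97 and 8.86 CPM in the SST samples, 3.05 and 2.22 in the PV samples and 0 and 0 in the VIP samples. The region nearest to Elfn1, a postsynaptic adhesion protein at synapses onto SST cells, lies in an intron of Mad1l1 and had 11 and 11.1 CPM in the SST samples, 2.54 and 1.11 in the PV samples and 1.99 and 0.447 in the VIP samples. An exon-overlapping region of Reln, the gene of the extracellular protein reelin, had 7.35 and 6.21 CPM in the SST samples, 3.05 and 2.77 in the PV samples and 0.496 and 0.447 in the VIP samples, and its ratio of 2.03 is close to the threshold. In all of these the SST values exceed every other sample, as the rule requires.

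Of the MGE genes, the transcription factor Sox6 had a region 505228 bp from its start, with 9.97 and 5.32 CPM in the SST samples, 0 and 0.555 in the PV samples and 0 and 1.79 in the VIP samples. An intron of the transcription factor gene Cux2 had 13.1 and 15.5 CPM in the SST samples, 3.56 and 4.44 in the PV samples and 1.99 and 0.447 in the VIP samples. A region 177167 bp from Maf had 8.4 and 5.76 CPM in the SST samples, 1.02 and 2.22 in the PV samples and 2.48 and 1.34 in the VIP samples, and one 725030 bp from Nxph1, a ligand of neurexins, 6.3 and 7.54 CPM in the SST samples, 2.54 and 2.22 in the PV samples and 1.49 and 0.447 in the VIP samples. All stayed under 16 CPM in SST, below the Cbln4 regions. The CGE gene Prox1 had a region 214068 bp upstream with 12.1 and 10.2 CPM in the SST samples, 4.07 and 1.66 in the PV samples and 0 and 0.447 in the VIP samples, where both PV values lay above both VIP values.

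**Figure D4:**
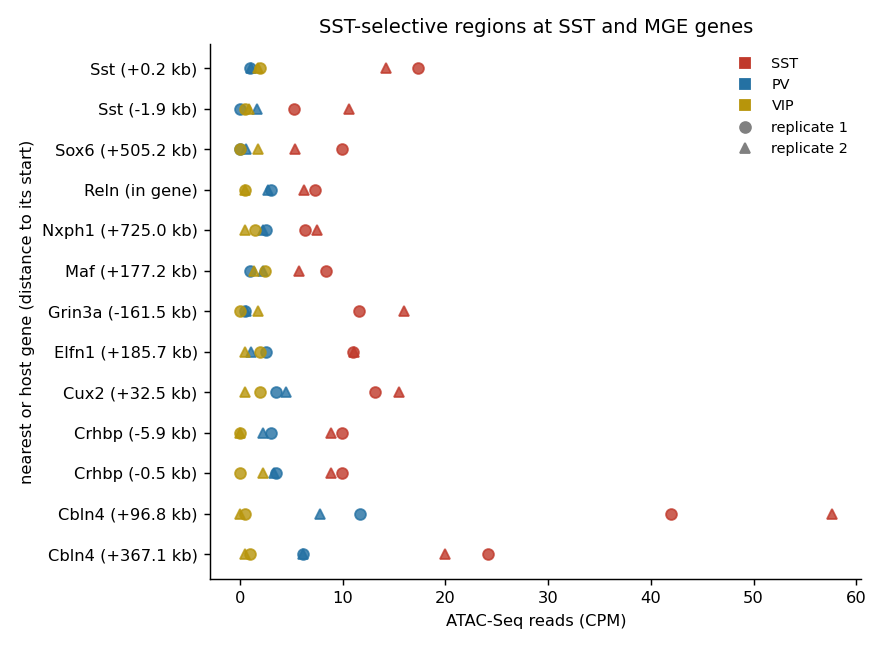
CPM (horizontal axis) of the SST-selective regions whose host or nearest gene is on the SST or MGE list (vertical axis, with the distance of the centre to the start, negative upstream). Each point is a sample: circles are replicate 1, triangles replicate 2, red SST, blue PV and yellow VIP. The Cbln4 region at 96751 bp reaches 42.0 and 57.6 CPM in SST.

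Gene families were compared by the share of regions at their genes. Potassium channel genes had 14 regions at 12 genes (1.69%, against 1.38% of the other distal, 1.17% of the PV-selective and 1.20% of the VIP-selective regions), among them Kcnma1, Kcnq3 and Kcnc4. Ionotropic and metabotropic glutamate receptor genes had 7 (0.847%, against 0.271%, 0.520% and 0.380%), including 2 at the kainate receptor gene Grik3. Its intronic one had 17.3 and 19.1 CPM in the SST samples, 3.05 and 3.88 in the PV samples and 1.49 and 1.79 in the VIP samples. Cadherins had 10 (1.21%, against 0.571%, 0.650% and 0.718%), with 3 at Cdh4. Transcription factor families had 14 regions (1.69%, against 1.97%, 1.95% and 2.05%). Axon guidance genes had 6 (0.726%, against 1.05%, 1.04% and 1.67%). Sodium and calcium channels had 4 (0.484%, against 0.381%, 0.585% and 0.781%), and so had neuropeptide and serotonin receptors (against 0.170%, 0.520% and 0.380%). GABA receptor genes had 0, against 0.0301% of the other distal regions. Families thus lay on either side of the sets compared. For Sstr1, a receptor for somatostatin itself, 2 neighbouring promoter regions were members. The upstream one had 12.1 and 14.2 CPM in the SST samples, 2.54 and 2.77 in the PV samples and 2.98 and 1.34 in the VIP samples.

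The regions were spread over 747 nearest genes. For 679 of these a single region was nearest, for 60 there were 2, for 5 there were 3 and for 3 there were 4. The 3 genes were Plekhb2, Mroh5 and Klhl29. The genes with 3 were Pou3f3, Slc5a3, Adgrl2, Gadd45a and Cdh4. Another member lay within 10000 bp of 26 regions (3.15%), and within 100000 bp of 106 (12.8%). The group with the most members, 4 regions over 55852 bp near Plekhb2 (chr1:35202338-35258189), ran from 6.65 to 35.2 CPM in SST.

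To ask whether nearby genes were also expressed by SST cells, nuclei of the injected cortex were clustered on their own RNA. These nuclei came from visual cortex, whereas the ATAC-Seq nuclei came from the whole cortex. Of 47348 barcodes, 32335 nuclei with more than 200 gene UMIs were kept, at a mean of 881 UMIs, and 872 were SST-like, 1205 PV-like and 572 VIP-like by marker genes. The labels give 1 sample, so classes were not tested against each other. Its libraries form 2 sets, which by the methods of the study come from separate animals. The names of 5476 of the 25866 cell barcodes occur in more than 1 library, and no doublet caller was run. The nearest measured gene was highest in SST-like nuclei for 288 of the 826 regions (34.9%, Wilson 95% interval 31.7 to 38.2), against 27.4% of the other distal regions, 26.7% of the PV-selective, 24.8% of the VIP-selective and 27.7% of the 10070 measured genes. It was highest in PV-like nuclei for 33.8% and in VIP-like nuclei for 31.4%. The nearest gene was thus highest in another class for most of the regions. With at least 100 UMIs per gene asked for, the share was 28.6%, against 25.0% of the other distal, 25.0% of the PV-selective and 22.6% of the VIP-selective regions and 25.1% of the measured genes.

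Sst, Grin3a, Elfn1 and Nxph1 were among the markers that named the clusters, so their levels are a description. Sst was at 154 UMIs per 10000 in SST-like, 1.66 in PV-like and 1.53 in VIP-like nuclei. Grin3a was at 11.1, 0.1996 and 1.48, and Elfn1 at 3.85, 0.0384 and 2.00. Nxph1 was at 5.14, 3.72 and 0.247, so PV-like nuclei were closest to SST-like ones for this gene. Some other genes with a member were also higher there. Crhbp was at 4.22, 0.952 and 0.0225, and Cbln4 at 1.93, 0.161 and 0.562. Of the cadherins, Cdh13 was at 5.69, 1.51 and 1.73, and Cdh4 at 1.64, 0.269 and 0.876. Cdh8 differed less, at 0.638, 0.261 and 0.494, and Cdh26 had no UMIs in these classes. Several genes did not go with SST-like nuclei. Cacna2d2 was at 3.54, 4.90 and 0.225, and Cacng5 at 0.503, 0.0538 and 1.03. 5330417C22Rik, at the strongest region, was at 0.294, 0.361 and 0.112. Maf, at 5.02, 4.31 and 3.66, was much alike in the 3 classes, Sox6 was low throughout at 0.294, 0.323 and 0.0674, and Prox1 was at 0.0123, 0.0384 and 2.76. Free RNA in droplets can add UMIs to nuclei that do not express a gene, and its part in the low values was not tested.

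Of the 287 GREs of the viral library, 21 are among the 826 regions, and all 21 have a mean phyloP above 0.5. Of the 120 SST-selective regions with such a score, only these 21 were screened. The 266 other GREs are under the SST floor in the scaling used here. The elements that the study named as its top hits are all among these others, so none of them is a member. The study picked its GREs for conservation and SST enrichment in these same ATAC-Seq samples, so the ATAC-Seq values of the GREs are no independent evidence of their activity. The viral readout is a measurement that the rule did not use. For each GRE the UMIs of its viral barcodes were averaged over nuclei, and the fold is the mean in SST-like nuclei over that in all other nuclei, each with 0.01 added. The median fold of the 21 was 2.37 (quartiles 1.70 and 3.04, range 0.951 to 7.50), and it was 1.92 for the 266 other GREs. The fold was above 1 for 20 of the 21 and for 246 of the 266, so most GREs of either kind lay above 1. SST-like nuclei held more viral UMIs of any kind, at a mean of 44.4 per nucleus against 28.9 in PV-like, 15.5 in VIP-like and 13.9 in excitatory-like nuclei. Pooled over GREs, the ratio of SST-like to other nuclei was 2.81 for the 21 and 2.98 for the others. The order depended on the set of libraries, with 2.24 against 2.58 in set 1 and 3.71 against 3.58 in set 2.

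With 0.01 added, the largest fold among the 21 was that of GRE163, an intergenic region 265522 bp from the start of Wdr20rt, at 0.162 viral UMIs per SST-like nucleus and 0.0129 per other nucleus. Its fold of 7.50 was number 3 of the 287. This place depends on the settings, since the fold was 11.7 (number 1) with 0.001 added and 2.32 (number 21) with 0.1 added, and it was 3.27 in library set 1, where 3 of the 21 lay above it, and 12.6 in set 2. The value rests on few nuclei, since viral UMIs of GRE163 were found in 2.06% of SST-like and 0.588% of other nuclei, and the folds of its single barcodes ranged from 1.05 to 5.90. In the ATAC-Seq data it had 10.5 and 23.9 CPM in the SST samples, 0.508 and 2.77 in the PV samples and 0.496 and 1.79 in the VIP samples. GRE91 in an intron of Spock1 followed with a fold of 5.53 and 0.579 UMIs per SST-like nucleus, against 0.345 in PV-like nuclei. It had 7.87 and 6.65 CPM in the SST samples, 1.53 and 0 in the PV samples and 0 and 0 in the VIP samples, much less accessible chromatin than GRE262. Its fold was 5.95 with 0.001 added and 3.46 with 0.1 added, the highest of the 21 in the latter case. GRE262, the most accessible of the 21, had a fold of 3.06 on 43 UMIs in SST-like nuclei, and 4.83 and 1.36 with 0.001 and 0.1 added. The gap between GRE91 and GRE262 thus depends on the amount added. GRE65 near Grin3a had 3.32, GRE146 3.25 and GRE170 near Sox6 2.75. Folds of single barcodes ran from 0.890 to 3.27 for GRE65 and from 0.981 to 3.06 for GRE262, so their lowest lay below 1. The ranges were 4.15 to 5.46 for GRE91, 2.64 to 3.31 for GRE146 and 1.68 to 3.79 for GRE170. The Sst promoter (GRE222) had a fold of 1.39, on 11 UMIs in SST-like nuclei. At GRE258 the fold was 0.951 on 2 UMIs, and at this depth no difference could be seen. The 21 GREs are not replicates of a condition, since they were measured in the same nuclei.

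**Figure D5:**
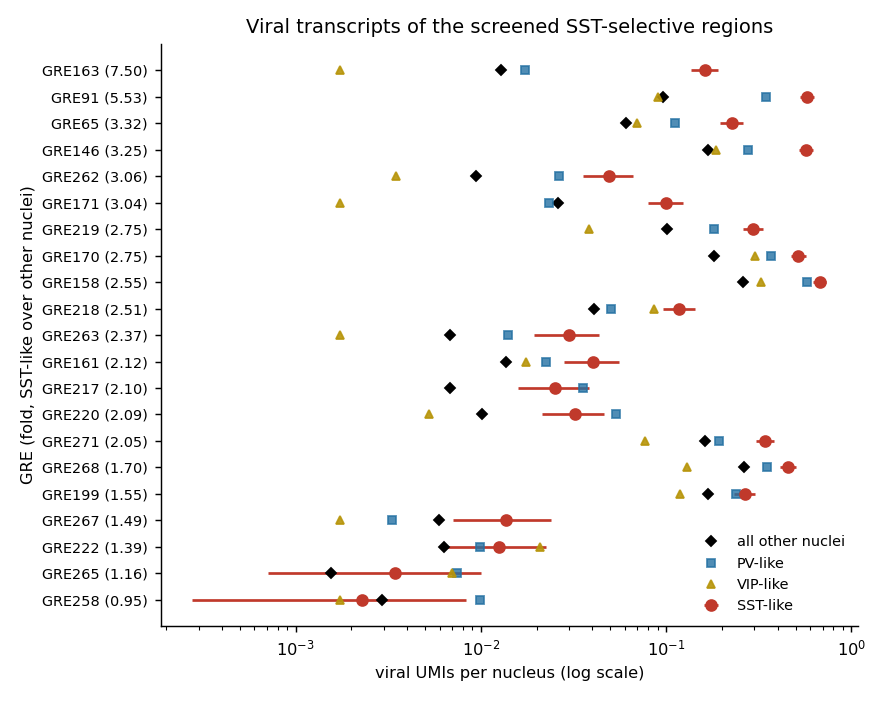
Viral UMIs per nucleus (horizontal axis, log scale) for the 21 screened SST-selective regions, ordered by fold (in brackets). Red points with exact Poisson 95% intervals, which cover counting error only, are SST-like nuclei; black diamonds are all other nuclei, blue squares PV-like and yellow triangles VIP-like ones, and means of 0 are not drawn. GRE163 stands at 0.162 in SST-like and 0.0129 in other nuclei.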

How the data were processed

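The deposited ATAC-Seq table holds counts, reads per reference region, which the authors made by trimming with Trimmomatic 0.33, aligning to GRCm38/mm10 with Subread 1.4.6-p3, removing duplicates, calling peaks with MACS2 and HOMER and counting reads with featureCounts. The authors merged the peaks of these and other cortical ATAC-Seq experiments into the reference regions, so a region need not have been called in an interneuron sample. Deposited peak marks are a score of 0 or 1, the deposited phyloP score is the mean over a region, and the deposited peak lists give −log10 q. Deposited single-nucleus tables hold UMI counts per gene and viral barcode. Columns with the authors' own SST specificity of the GREs were not used.

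CPM was computed here from the counts. edgeR 4.0.16 (R 4.3.3) fitted all 6 samples with TMM scaling after a filter on low counts, with Benjamini-Hochberg adjustment over all 40338 regions tested. The step was tested on simulated data. Positions came from GENCODE annotation of the same build, with 1000 bp around a start of a protein-coding gene as promoter, and sequence from the matching reference genome. Nuclei were log-normalised, reduced to 30 principal components and clustered with leidenalg 0.10.2 at resolution 1.5. The labels give 1 single-nucleus sample, and ATAC-Seq calls measure the spread between 2 samples per class.

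Replicates are described as separate animals, so counting and animal error are both in the spread. The regions named are the 10 highest in SST, the 5 with the highest ratio, those at genes of the SST and MGE lists, the 5 most changed each way between PV and VIP, the screened GREs, those next to the threshold, and the genes with the most regions. Some items that this rule or the gene families would name are not reported here. The regions and lists were chosen with earlier results of these data known. Wilson intervals (95%) are on shares of regions and take regions as independent, although the 826 regions share 716 nearest measured genes. Exact Poisson intervals (95%) are on UMIs and cover counting error only.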

Additional observations from a re-analysis of the deposited data

How the results depend on the processing

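The number of SST-selective regions was 1930 with a floor of 2.5 CPM and 258 with a floor of 10 CPM. It was 1532 with a ratio of 1.5 and 360 with a ratio of 3. When 1 sample was left out it was 907 to 2656, with 2656 without SST replicate 1 and 2197 without SST replicate 2. Leaving out a sample can only relax the rule, so these numbers could not fall below 826 and do not test it. TMM scaling gave 844. The regions called higher in PV than in VIP were 47 with DESeq2 (5.69%, against 12.9% of all tested), 18 with no filter on low counts (2.18% against 0.998%, the reverse order of 13.6% against 24.6% with the filter) and 48 to 102 with 1 sample left out. Without the filter the median log2 difference of PV to VIP was 0.43, against 0.71. The count was 48 without PV replicate 1, 69 without PV replicate 2, 66 without VIP replicate 1 and 50 without VIP replicate 2. Those called higher in VIP were 4, 2 and 2 to 13, with 7 without PV replicate 1, 2 without PV replicate 2 and 4 without VIP replicate 2. Against the mean of PV and VIP, 425 regions passed with DESeq2, 297 without the filter and 529 to 779 with 1 sample left out, 529 being without SST replicate 2.

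Same-numbered samples showed no shared deviation (correlations 0.02, 0.03 and -0.04). With 2 samples per class and low counts in most regions this cannot exclude a pairing, and the main fit used none. With the replicate number as a block, 98 regions were higher in PV, 8 in VIP and 804 in SST. A refit on distal regions alone, chosen after seeing the data, called 123 of the 797 distal ones higher in PV and 14 higher in VIP. The shares of all tested regions in these refits are not given, so nothing is read from their counts.

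The promoter share of 3.51% became 9.44% within 5000 bp, 8.35% with starts of all annotated genes and 1.94% in the regions of ratio 3. The conserved share of 14.5% became 32.3% at a score of 0.25, 2.91% at 1, 12.3% without exons and 17.8% at the floor of 10 CPM. In all reference regions 11.2% became 24.0%, 2.39% and 7.87% in the first 3 of these settings. In the other distal regions 17.1% became 34.7%, 3.71% and 13.9%. The nearest-gene share of 34.9% became 28.6% at a UMI floor of 100, where the other distal regions had 25.0% and all measured genes 25.1%. The median viral fold of 2.37 became 2.84 with 0.001 added, 1.53 with 0.1, 1.84 in library set 1 and 3.07 in set 2. For the 266 other GREs, 1.92 became 2.37, 1.26, 1.69 and 1.99. The 21 also had more viral UMIs per GRE, with a median of 910 against 752. Causes were not tested. With 2 samples per class, a region at the floor rests on 10 reads in the lower SST sample.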
